A study of Mus musculus with 7 samples.

Results

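The genes described are the protocadherins of the embryonic mouse dorsal forebrain: all gene symbols of the deposited list that begin with Pcdh, with 1 such symbol left aside. They number 34 of 21862 genes. Of these, 23 are clustered protocadherins, namely Pcdha2, Pcdhga9 and 21 Pcdhb genes (Pcdhb2 to Pcdhb22), and 11 are non-clustered (Pcdh1, Pcdh7, Pcdh9, Pcdh10, Pcdh11x, Pcdh12, Pcdh15, Pcdh17, Pcdh18, Pcdh19 and Pcdh20). All 34 were found by symbol, without use of any measured level.

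Cells came from dorsal forebrain of CD-1 mouse embryos, an outbred strain with no allele or treatment given in the labels, and were profiled with Drop-seq, a droplet method that tags transcript ends by cell and by molecule, so that each unique molecular identifier (UMI) counts once. There was 1 sample each at embryonic day (E) 10.5, E12.5, E15.5, E16.5 and E18.5, and 2 samples at E14.5. The 10261 cells carry 1 of 19 deposited labels without names, numbered 0 to 18. No source used here says how many embryos or litters each sample pooled, so p-values reflect how far these samples differ from each other, and part of that may be technical.

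Labels were read by marker genes and kept by number. Labels 1, 3, 6, 10 and 12 were summed as the progenitor labels. In labels 1, 3 and 10, at least 9 of 10 apical progenitor markers (Sox2, Pax6, Hes5 and others) were 2-fold higher than in the other cells, in label 12 5 of 10 and in label 6 3 of 10. Label 12 was led by Olig1 and Olig2, transcription factors of the oligodendrocyte lineage, so values without it are given where they matter. Its 10 leading genes held none of the apical progenitor markers, which was also true of labels 3, 6 and 10. The summed level of these markers was higher in label 12 (18085 CPM) than in the other progenitor labels. Labels 4 and 7 (intermediate labels) had 6 and 7 of 7 intermediate progenitor markers at 2-fold. Labels 2, 5, 9 and 11 were summed as the neuron labels, with 7, 4, 1 and 8 of 10 projection neuron markers at 2-fold, so that label 9, led by Grp and Crym, carried little support for a name. Label 0 was kept apart, with 3 of 10 projection neuron markers at 2-fold. Label 8 was interneuron-like, with 9 of 9 markers, and label 13 was Cajal-Retzius-like, with 7 of 7. Labels 14 to 18 were hem-like, mesenchymal-like, endothelial-like, microglia-like and mural-like, and each had its whole list (5 or 6 markers) at 2-fold. Label 16 also had 5 of 5 mural markers at 2-fold, at a summed 116 CPM against 6261 CPM for its endothelial markers. Label 18 also had 3 of 5 mesenchymal markers at 2-fold, at a summed 954 CPM against 8461 CPM for its mural markers.

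Each sample held 387 to 3235 cells with 1519473 to 6638760 UMIs, and the median UMIs per cell lay between 1645 and 3352. Median mitochondrial shares were 2.25% and 2.80% in the E14.5 samples, against 3.83% to 7.53% at the other stages. 4 cell barcodes occurred in more than 1 of the 12 libraries. Sums were formed for each label set in each sample that had 20 cells of it or more, and levels are UMIs per 1000000 of that sum (CPM). The neuron labels had 3 cells at E10.5, so their values start at E12.5. The deposited labels were drawn from these same counts, and p-values of differences between label sets are therefore too small.

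Protocadherins are calcium-dependent adhesion proteins of the cadherin superfamily that mostly bind the same protein on a neighbouring membrane. Clustered protocadherins are made from neighbouring arrays of variable exons, each with its own promoter, and neurons choose different combinations of them, which gives single cells distinct surface identities used in dendrite self-avoidance and axon tiling. The alpha and gamma arrays splice each variable exon to shared constant exons, whereas each beta gene is a single exon. Non-clustered delta protocadherins are separate genes that are switched on in overlapping zones and layers of the developing cortex, where they act in cell sorting, axon growth and synapse formation.

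This gene structure limits what the counts of the clustered genes measure. Drop-seq reads transcript 3′ ends. In the GENCODE M21 annotation (GRCm38, the same build as mm10), the last exon of Pcdha2 (chromosome 18, 37184946 to 37187657) is shared by 12 other annotated protocadherin genes, and that of Pcdhga9 (37839903 to 37841870) is shared by 21 others. The deposited list holds 1 of 13 annotated protein-coding alpha genes and 1 of 21 gamma genes. UMIs under Pcdha2 and Pcdhga9 can therefore not be told apart from those of other alpha and gamma genes, and the symbols below stand for counts over these shared ends. The 21 Pcdhb genes, of 22 annotated, each have 1 exon, and only those of Pcdhb21 and Pcdhb22 overlap each other. 25 of the 34 members lie on chromosome 18.

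The matrix held 5360 UMIs of Pcdhga9, 1979 of Pcdha2 and 1278 over the 21 Pcdhb genes, of which Pcdhb7 had 172, Pcdhb17 143, Pcdhb21 136 and Pcdhb5 100. The 11 non-clustered genes held 7911 UMIs, between 16 for Pcdh12 and 1854 for Pcdh17. At these depths most Pcdhb genes stayed under the low count filter of every test: 15 of the 34 members passed it in at least 1 comparison, 5 of them Pcdhb genes, and 10 passed a test at least once. A low level in a sum can mean fewer cells with the transcript or less of it per cell.

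Promoter sequences of 8 members were matched by symbol to RefSeq entries on GRCm38.p6, all of them non-clustered genes. Shown are the windows of the 2 genes called lower in the neuron labels than in the progenitor labels, and of the 2 called higher with the widest difference. CCAAT occurs in 7 of the 8 genes, and Pcdh7, also higher in the neuron labels, holds neither it nor GGGCGG. The 300-base windows run from 250 bases before to 50 bases after the annotated start. They lie at chr14:93890630-93890929 (minus strand) for Pcdh9 and chr14:88471347-88471646 (minus strand) for Pcdh20, both higher in the neuron labels, and at chr3:45378148-45378447 (plus strand) for Pcdh10 and chr3:49757267-49757566 (minus strand) for Pcdh18, both lower there. Capitals mark the motifs GGGCGG and CCAAT on either strand (the reverse complements being CCGCCC of the first and ATTGG of the second).
Pcdh9: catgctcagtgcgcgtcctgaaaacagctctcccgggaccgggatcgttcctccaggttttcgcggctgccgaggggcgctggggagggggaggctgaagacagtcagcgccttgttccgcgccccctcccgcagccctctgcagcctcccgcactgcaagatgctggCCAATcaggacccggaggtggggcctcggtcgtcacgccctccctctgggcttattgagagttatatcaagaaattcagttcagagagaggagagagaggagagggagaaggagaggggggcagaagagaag
Pcdh20: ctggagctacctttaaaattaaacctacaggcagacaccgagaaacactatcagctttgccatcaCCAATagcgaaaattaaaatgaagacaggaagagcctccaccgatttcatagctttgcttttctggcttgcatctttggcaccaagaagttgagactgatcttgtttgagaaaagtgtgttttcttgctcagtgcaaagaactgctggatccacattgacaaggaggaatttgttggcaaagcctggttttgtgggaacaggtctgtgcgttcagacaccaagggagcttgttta
Pcdh10: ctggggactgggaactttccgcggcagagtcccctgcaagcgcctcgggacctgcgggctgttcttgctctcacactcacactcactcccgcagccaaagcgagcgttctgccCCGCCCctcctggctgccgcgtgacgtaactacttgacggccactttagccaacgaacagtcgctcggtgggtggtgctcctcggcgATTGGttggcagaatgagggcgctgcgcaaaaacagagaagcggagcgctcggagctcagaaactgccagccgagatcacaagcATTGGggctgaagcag
Pcdh18: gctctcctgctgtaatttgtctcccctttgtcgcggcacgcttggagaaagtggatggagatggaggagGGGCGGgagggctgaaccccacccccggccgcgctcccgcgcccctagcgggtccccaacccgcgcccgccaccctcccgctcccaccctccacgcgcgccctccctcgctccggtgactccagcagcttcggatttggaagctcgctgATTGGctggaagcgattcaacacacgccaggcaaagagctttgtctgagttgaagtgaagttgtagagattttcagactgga
Of the 4, the Pcdh20 window stood apart in base composition, with 43.7% G and C and 4 CpG dinucleotides, against 62.3% to 63.0% and 18 to 24 CpG in Pcdh9, Pcdh10 and Pcdh18. The median over 32851 RefSeq promoter windows was 52.7% and 7 CpG. GGGCGG was found in Pcdh10 and Pcdh18 and not in Pcdh9 or Pcdh20, and 35.7% of all windows hold it. Among the genes not shown, Pcdh17, called higher in the neuron labels, and Pcdh19, which did not pass, also hold it. CCAAT was found in all 4 shown, and 37.4% of all windows hold it. Of the other motifs searched on both strands, CAGCTG is held by 16.3% of all windows, CAGATG by 17.2% and TATAAA by 13.6%, and none of these letters occur in the 4. The motif ACAAAG, held by 18.7% of all windows, matched 2 times in Pcdh18.

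Pcdh9 and the alpha counts under Pcdha2 were higher in the neuron labels than in the progenitor labels by 8.47-fold and 7.99-fold, and Pcdhb7, Pcdh7, the gamma counts under Pcdhga9 and Pcdh17 were higher by 1.74-fold to 3.63-fold. Pcdh10 and Pcdh18 were lower in the neuron labels. Of the 34 members, 10 passed the low count filter in this comparison of 6 samples, 7 (Pcdh20 among them) were higher and 2 lower at an edgeR adjusted p under 0.05, while 60.5% of all 10311 genes tested passed, 30.7% higher and 29.8% lower. A member that passes the filter only through the neuron labels had to differ, so the 9 of 10 is not read against that background.

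Among the clustered genes, Pcdha2 had 109.6, 129, 133, 158, 155 and 232 CPM from E12.5 to E18.5 in the neuron labels, against 27.2, 10.7, 13, 7.40, 22 and 41.2 CPM in the progenitor labels of the same samples. In each such row, the 2 values after E12.5 are the E14.5 samples. Every neuron value lay above every progenitor value. Between the sets the log2 difference was 3.0 (SE 0.25, edgeR adjusted p = 3.91e-07). In the neuron labels 739 of 2599 cells (28.4%, exact 95% interval 26.7% to 30.2%, median depth 2362 UMIs) had a Pcdha2 UMI, against 118 of 3403 progenitor label cells (3.47%, 2.88% to 4.14%, median depth 2108 UMIs). In the mesenchymal-like label 15, which should lack the gene, it was 2 of 142 cells (1.41%) at a median depth of 3838 UMIs. With cells thinned to 1000 UMIs the shares were 13.7% of 2267 cells in the neuron labels and 1.67% of 2822 cells in the progenitor labels.

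Pcdhga9 was the most broadly counted member. It had 264, 286, 387, 284, 297 and 350.3 CPM from E12.5 to E18.5 in the neuron labels, against 71.9, 91.8, 122, 109, 172 and 374 CPM in the progenitor labels. Neuron labels were higher in 5 of 6 samples, and at E18.5 the progenitor labels were the higher. The log2 difference was 1.31 (SE 0.22, edgeR adjusted p = 0.000203). A Pcdhga9 UMI was found in 50.9% of neuron label cells and 20.4% of progenitor label cells, and in 7 of 32 cells (21.9%) of the microglia-like label 17 at a median depth of 2739 UMIs. Thinned to 1000 UMIs, the shares were 26.1% in the neuron labels, 9.60% in the progenitor labels and 3.85% (1 of 26 cells) in label 17.

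The beta genes were counted at a few CPM each. Pcdhb7, the one that could be tested, had 1.14, 5.61, 10.9, 19.2, 11.3 and 15.6 CPM from E12.5 to E18.5 in the neuron labels, against 1.09, 0.89, 2.60, 7.40, 0 and 4.95 CPM in the progenitor labels. Neuron labels were higher in 6 of 6 samples, with overlapping ranges. Its log2 difference was 1.86 (SE 0.47, edgeR adjusted p = 0.00397), and it rests on 93 UMIs in the neuron labels and 13 in the progenitor labels. Pcdhb7, too, passed the low count filter through the neuron labels.

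The other Pcdhb genes are given as a description. The mean was higher in the neuron labels for 20 of 21 genes, and 9 were higher in each of the 6 samples. For 5 (Pcdhb2, Pcdhb9, Pcdhb10, Pcdhb17 and Pcdhb21) the neuron and progenitor ranges did not overlap. Pcdhb2 had 9 UMIs in the neuron labels and 1 in the progenitor labels, and Pcdhb10 had 8 and 0. The ranges of these genes thus rest on very few counts. Of the 18901 genes with a UMI in either set, 49% had the higher mean in the neuron labels, 15% were higher there in every sample and 8.96% had neuron values all above the progenitor values. Pcdhb17 averaged 8.40 ± 1.94 CPM in the neuron labels and 1.28 ± 1.94 CPM in the progenitor labels (SD, n = 6 each), and Pcdhb21 averaged 9.14 ± 4.20 and 0.893 ± 1.30 CPM in the same order. Pcdhb5 averaged 5.63 ± 1.43 CPM in the neuron labels and 2.87 ± 3.84 CPM in the progenitor labels and was higher in 4 of 6 samples. The exception was Pcdhb8, with 4 UMIs in the whole matrix.

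**Figure D1:**
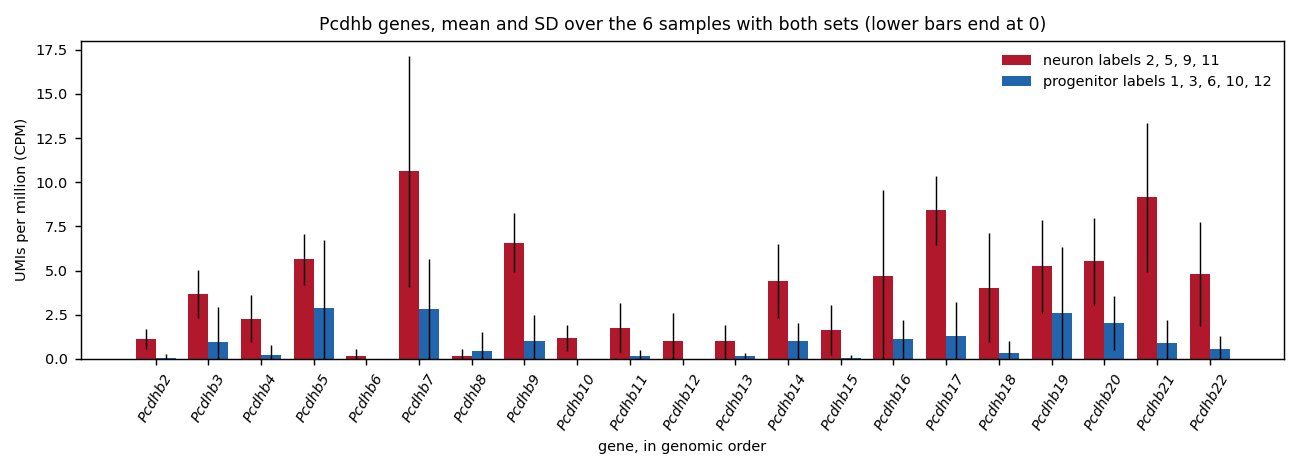
Mean levels of the 21 Pcdhb genes, in CPM, with the SD over 6 samples as error bars that end at 0, in the neuron labels (red) and the progenitor labels (blue), in genomic order on chromosome 18. Red bars are the taller for every gene except Pcdhb8, and no mean passes 10.6 CPM.

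Summed over the 21 Pcdhb genes, levels were 50.2, 68.9, 103, 83.2, 79.2 and 114 CPM from E12.5 to E18.5 in the neuron labels, against 7.99, 19.6, 13, 12.96, 14.7 and 42.9 CPM in the progenitor labels. The highest progenitor value lay below the lowest neuron value. The mean was 96.6 ± 59.5 CPM in label 8 (SD, n = 7), 83.1 ± 23.0 CPM in the neuron labels (n = 6), 63.8 ± 12.6 CPM in label 13 (n = 5), 58.3 ± 14.7 CPM in label 0 (n = 6), 43.2 ± 24.2 CPM in the intermediate labels (n = 7) and 16.2 ± 12.9 CPM in the progenitor labels (n = 7). The neuron labels lay above label 0, which had 44.7, 56.35, 69.5, 45.2, 51.9 and 82 CPM from E12.5 to E18.5, in 6 of 6 samples, a difference with no test here. The ranges of label 8, the neuron labels, label 13 and label 0 overlapped, and the sums of label 8 rest on 2 to 19 UMIs a sample. Label 4 and label 7 of the intermediate labels differed, with 89 UMIs (55.9 CPM) in label 4 and 16 UMIs (12 CPM) in label 7, all samples pooled.

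Per cell, beta transcripts were sparse. At least 1 Pcdhb UMI was found in 456 of 2599 neuron label cells (17.5%), and 103 of these had UMIs of 2 or more different Pcdhb genes, with 4 as the most in 1 cell. In the progenitor labels it was 94 of 3403 cells (2.76%), 8 of them with 2 or more. Cells with a Pcdhb UMI were deeper than those without (median 3775.5 against 2175 UMIs in the neuron labels). After thinning to 1000 UMIs the shares were 7.15% in the neuron labels and 1.24% in the progenitor labels, with 11 and 2 cells that had 2 or more. The number of beta genes a cell uses cannot be read from these counts.

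Among the delta protocadherins of the first group (Pcdh1, Pcdh7, Pcdh9 and Pcdh11x), Pcdh9 separated the label sets most. It had 233, 118, 122, 69.8, 104 and 121 CPM from E12.5 to E18.5 in the neuron labels, against 18.2, 13.4, 31.2, 5.55, 14.7 and 24.7 CPM in the progenitor labels. Every neuron value was above every progenitor value. A log2 difference of 3.08 (SE 0.22, edgeR adjusted p = 1.18e-07) was found, and no alternative ended it. A Pcdh9 UMI was found in 24.1% of neuron label cells and 4.29% of progenitor label cells, against 1 of 142 cells (0.704%) of label 15.

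Pcdh7, which binds the phosphatase PP1 through its cytoplasmic tail, was the other tested gene of that group. Its neuron label levels were 17.1, 16.8, 20.4, 39.6, 51.55 and 59.2 CPM from E12.5 to E18.5, against 3.63, 12, 18.2, 13, 3.67 and 1.65 CPM in the progenitor labels. Neuron labels were higher in 6 of 6 samples, with overlapping ranges, and the log2 difference was 1.84 (SE 0.44, edgeR adjusted p = 0.00303). With only cells of at most 5% mitochondrial UMIs it was 1.05 and no longer passed (edgeR adjusted p = 0.0555). Pcdh7 also did not pass with every sum thinned to the smallest (edgeR adjusted p = 0.253). Pcdh1 and Pcdh11x did not pass the low count filter here. Pcdh1 averaged 6.85 ± 2.97 CPM in the neuron labels and 1.99 ± 3.19 CPM in the progenitor labels, and Pcdh11x 4.08 ± 5.43 and 5.86 ± 2.86 CPM in the same order (SD, n = 6 each).

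The delta protocadherins of the second group (Pcdh10, Pcdh17, Pcdh18 and Pcdh19) went in both directions. Several of them recruit the WAVE actin regulatory complex and act in axon growth. Pcdh10 had 30.8, 23.5, 35.3, 16.9, 26.4 and 50.7 CPM from E12.5 to E18.5 in the neuron labels, against 82, 49.9, 93.6, 99.9, 128 and 134 CPM in the progenitor labels. It was lower in the neuron labels of 6 of 6 samples, and only the neuron value of E18.5 lay within the progenitor range. The difference on the log2 scale was -1.53 (SE 0.19, edgeR adjusted p = 2.00e-05), and no alternative ended it. A Pcdh10 UMI was found in 6.77% of neuron label cells and 14.1% of progenitor label cells, and in 0 of 142 cells of label 15 (exact upper bound 2.56%).

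Pcdh18 had 10.3, 9.18, 8.14, 11.6, 16.3 and 6.52 CPM from E12.5 to E18.5 in the neuron labels, against 30.85, 24.5, 54.6, 20.4, 11 and 8.24 CPM in the progenitor labels. It was lower in the neuron labels of 5 of 6 samples, and the late progenitor values overlapped the neuron values. Its log2 difference was -1.09 (SE 0.34, edgeR adjusted p = 0.0148). Without the first E14.5 sample it was -1.05 and did not pass (edgeR adjusted p = 0.0513).

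Pcdh17 and Pcdh19 differed less between the sets. Pcdh17 had 69.6, 75.5, 58.4, 143, 153 and 142 CPM from E12.5 to E18.5 in the neuron labels, against 24, 51.7, 65, 109, 99.05 and 69.25 CPM in the progenitor labels, and was higher in 5 of 6 samples. Its log2 difference was 0.80 (SE 0.18, edgeR adjusted p = 0.00198), and without label 9 it was 0.53 (edgeR adjusted p = 0.0501). With every sum thinned to the smallest Pcdh17 did not pass either (edgeR adjusted p = 0.549). Pcdh19, an X-linked gene whose human counterpart is mutated in an epilepsy of girls, did not pass, with a log2 difference of 0.21 (95% interval -0.52 to 0.94, edgeR adjusted p = 0.614). Its neuron label levels were 91.3, 36.7, 31.2, 26.8, 28.9 and 51.7 CPM, against 65.7, 65.1, 72.8, 22.2, 18.3 and 9.89 CPM in the progenitor labels, so the sets crossed between stages.

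Of the other non-clustered genes, Pcdh20 had the widest fitted difference. Its neuron label levels were 1.14, 10.7, 12.2, 11.6, 17.6 and 29.1 CPM from E12.5 to E18.5, against 0.363 CPM at E12.5, 3.30 CPM at E18.5 and 0 in the 4 samples between in the progenitor labels. These are 123 UMIs in the neuron labels and 3 in the progenitor labels of the same samples, a ratio of pooled levels of 34.5 with an exact 95% counting interval of 11.5 to 170. The fitted log2 difference was 4.18 (95% interval 2.80 to 5.56, edgeR adjusted p = 9.51e-05). Pcdh20 passed the low count filter through the neuron labels alone, so this call is a description. Pcdh15, known for the tip links of inner ear hair cells, had 6 UMIs in the neuron labels and 23 in the progenitor labels over these samples and was not tested. Pcdh12, an endothelial protocadherin, had 0 UMIs in both.

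**Figure D2:**
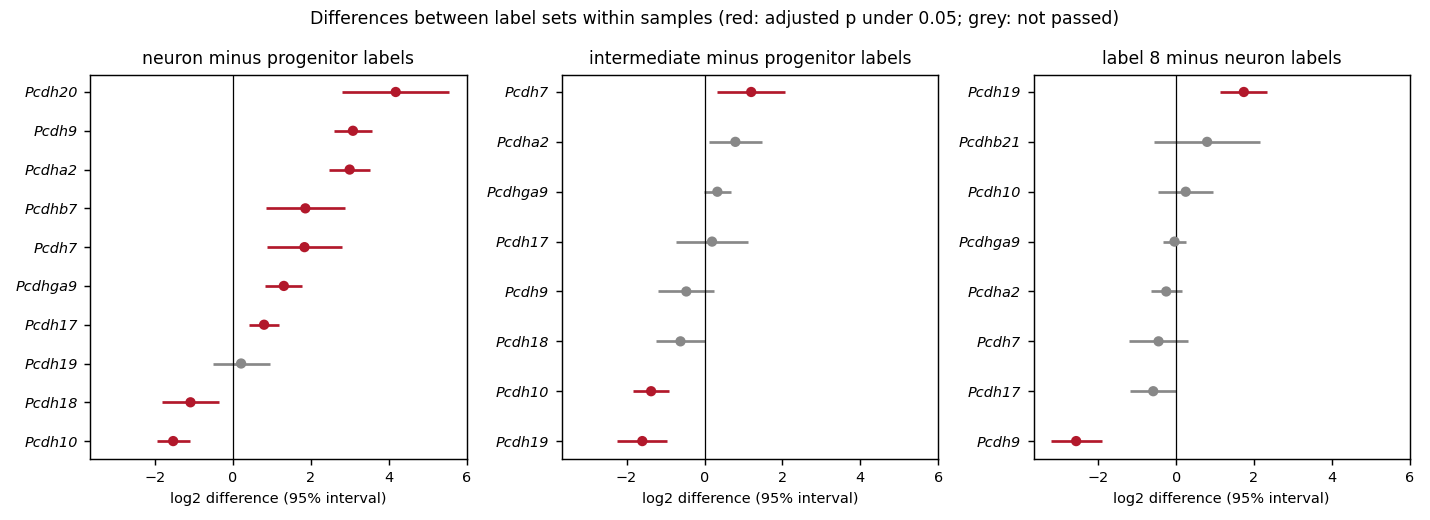
Log2 differences within samples for the members that passed the low count filter, with 95% intervals as lines, for neuron minus progenitor labels (left, 6 samples), intermediate minus progenitor labels (middle, 7 samples) and label 8 minus neuron labels (right, 6 samples). Red marks an edgeR adjusted p under 0.05: 9 of 10 members at the left, 3 of 8 in the middle and 2 of 8 at the right.

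Intermediate labels, which express Eomes and Neurog2 and lie between progenitors and neurons, had lower Pcdh10 and Pcdh19 and higher Pcdh7 than progenitor labels. Pcdha2, Pcdh9 and Pcdhga9, all higher in neuron than in progenitor labels, did not pass here. Of 8 members tested over 7 samples, 1 was higher and 2 lower, beside 29.4% of 8546 genes tested, 13.7% higher and 15.7% lower.

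Pcdh10 had 7.93, 40.4, 18.9, 25.9, 33.3, 9.51 and 88.4 CPM from E10.5 to E18.5 in the intermediate labels, against 41.1, 82, 49.9, 93.6, 99.9, 128 and 134 CPM in the progenitor labels. It was lower in 7 of 7 samples, and only the intermediate value of E18.5 lay within the progenitor range. On the log2 scale the difference was -1.37 (SE 0.22, edgeR adjusted p = 0.000108). With every sum thinned to the smallest it was -1.56 and did not pass (edgeR adjusted p = 0.771). Pcdh19 had 31.7, 27.2, 5.90, 30.3, 16.7, 19 and 0 CPM in the intermediate labels, against 105, 65.7, 65.1, 72.8, 22.2, 18.3 and 9.89 CPM in the progenitor labels. It was lower in 6 of 7 samples, with little distance from E15.5 on, and its log2 difference was -1.60 (SE 0.31, edgeR adjusted p = 0.000621).

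Pcdh7 had 0, 14.9, 28.3, 17.3, 19.5, 28.5 and 17.7 CPM in the intermediate labels, against 6.32, 3.63, 12, 18.2, 13, 3.67 and 1.65 CPM in the progenitor labels. A log2 difference of 1.20 (SE 0.42, edgeR adjusted p = 0.0370) was found, with 5 of 7 samples higher. Leaving out E12.5 gave 0.94 (edgeR adjusted p = 0.194), leaving out E16.5 gave 1.11 (edgeR adjusted p = 0.0619) and leaving out the E14.5 library assigned by inference gave 1.17 (edgeR adjusted p = 0.0525). It was 1.08 with only cells of at least 1000 UMIs (edgeR adjusted p = 0.0703) and 0.98 with only cells of at most 5% mitochondrial UMIs (edgeR adjusted p = 0.134), and none of these passed. The differences that did not pass were 0.79 for Pcdha2 (95% interval 0.11 to 1.47, edgeR adjusted p = 0.0744), 0.33 for Pcdhga9 (-0.02 to 0.68, edgeR adjusted p = 0.149), -0.47 for Pcdh9 (-1.19 to 0.25), -0.62 for Pcdh18 (-1.25 to 0.01) and 0.19 for Pcdh17 (-0.73 to 1.11). Single samples decided 3 of these: Pcdhga9 was 0.51 and passed without E18.5 (edgeR adjusted p = 0.00728), Pcdha2 was 0.89 and 0.94 and passed without E16.5 or E18.5 (edgeR adjusted p = 0.0484 and 0.0435), and Pcdh18 was -0.90 and passed without E15.5 (edgeR adjusted p = 0.0333). Pcdh20 had 0 UMIs in all 7 intermediate sums.

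Of the 23 clustered members, 3 could be tested between the interneuron-like label 8 and the neuron labels (Pcdhga9, Pcdha2 and Pcdhb21), and none passed. The sets differed in 2 delta genes. Pcdh19 was higher and Pcdh9 lower in label 8. Of 8 members tested over 6 samples, 1 was higher and 1 lower, beside 14.1% of 8570 genes tested, 5.73% higher and 8.37% lower. The difference was -0.04 for Pcdhga9 (95% interval -0.34 to 0.26) and -0.26 for Pcdha2 (-0.66 to 0.15).

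Pcdh19 had 148, 212, 256, 184, 95 and 43.5 CPM from E12.5 to E18.5 in label 8, against 91.3, 36.7, 31.2, 26.8, 28.9 and 51.7 CPM in the neuron labels. Label 8 was higher in 5 of 6 samples, most at E14.5 and E15.5, and lower at E18.5. Its log2 difference was 1.74 (SE 0.30, edgeR adjusted p = 4.11e-05). With every sum thinned to the smallest, no member passed in this comparison. A Pcdh19 UMI was found in 74 of 436 label 8 cells (17%, median depth 1520 UMIs) and in 260 of 2599 neuron label cells (10%), against 0 of 32 cells of label 17.

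Pcdh9 had 12.3, 16.3, 11.1, 7.35, 51.8 and 24.2 CPM from E12.5 to E18.5 in label 8, against 233, 118, 122, 69.8, 104 and 121 CPM in the neuron labels. The ranges did not overlap. For Pcdh9 the log2 difference was -2.57 (SE 0.32, edgeR adjusted p = 1.57e-07). A Pcdh9 UMI was found in 3.44% of label 8 cells and 24.1% of neuron label cells. The remaining tested members were Pcdh17 at -0.59 (95% interval -1.18 to -0.00, edgeR adjusted p = 0.198, and -0.94 with 0.0201 without E12.5), Pcdh7 at -0.45, Pcdh10 at 0.25 and Pcdhb21 at 0.79 (-0.57 to 2.16), and none of them passed with all samples.

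**Figure D3:**
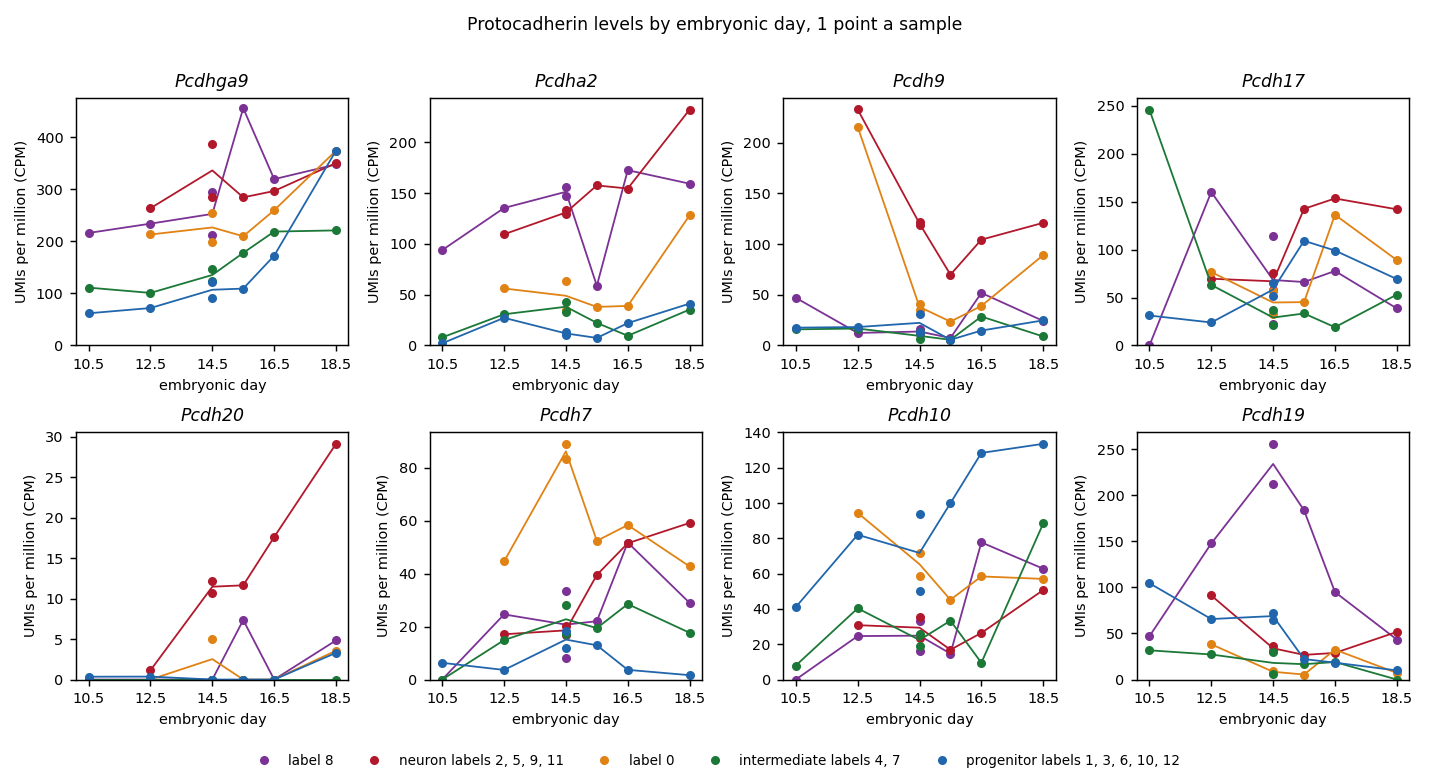
Levels of 8 protocadherins in CPM (vertical axes, each from 0) against embryonic day (horizontal axes), 1 point per sample and label set, with lines through the mean of each day and the 2 E14.5 samples as separate points. In the progenitor labels (blue), Pcdhga9 and Pcdh10 end at 374 and 134 CPM and Pcdh19 at 9.89 CPM, and Pcdh20 ends at 29.1 CPM in the neuron labels (red).

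Over embryonic days, the progenitor labels showed a fall of Pcdh19 and rises of Pcdhga9 and Pcdh10. Slopes are log2 changes per day. Of 7 members tested over 7 samples, 2 rose and 1 fell, beside 9.31% of 8392 genes tested, 6.39% rising and 2.92% falling. The make-up of these sums moved with the day: label 6 was 90.8% of the cells at E10.5, labels 1 and 3 together were most of those at E12.5 and E14.5, and label 12 made up 58.3% at E16.5, then 83.4% at E18.5. The summed level of the 4 oligodendrocyte lineage markers was 21.4 CPM at E10.5, 0 to 5.20 CPM from E12.5 to E15.5, 191 CPM at E16.5 and 1167 CPM at E18.5, and Sox10 was at 0 until E15.5. The 10 projection neuron markers summed to 323 to 611 CPM in every progenitor sample, with 559 CPM at E18.5 and 435 CPM at E10.5, against 6771 to 10322 CPM in the neuron labels.

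Pcdh19 had 105, 65.7, 65.1, 72.8, 22.2, 18.3 and 9.89 CPM from E10.5 to E18.5 in the progenitor labels, the 2 E14.5 samples again after E12.5. All values from E15.5 on lay below all earlier ones. The slope was -0.38 per day (SE 0.07, edgeR adjusted p = 0.00540), and it passed without label 6 (-0.41), without label 12 (-0.30) and without any 1 sample. With only cells of at most 5% mitochondrial UMIs it was -0.22 and did not pass (edgeR adjusted p = 0.129). Within single labels the picture was uneven: Pcdh19 had 83.8, 74.8, 63.2 and 96.8 CPM from E10.5 to E14.5 and 0 at E15.5 in label 1, 185, 60.1, 64.4, 65 and 81 CPM at the same stages in label 3, and 49.7, 22.9, 13.1 and 9.78 CPM at E14.5, E15.5, E16.5 and E18.5 in label 12. Label sums such as those of labels 3 and 12 at E15.5, with 20 and 35 cells, rest on a few UMIs.

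Pcdhga9 had 61.8, 71.9, 91.8, 122, 109, 172 and 374 CPM from E10.5 to E18.5 in the progenitor labels. The slope was 0.32 per day (SE 0.05, edgeR adjusted p = 0.00111). It was 0.37 without label 6, 0.28 without label 12 and 0.21 without E18.5 (edgeR adjusted p = 0.0327), and passed each time. With every sum thinned to the smallest no member passed, at 0.33 for Pcdhga9 (edgeR adjusted p = 0.166) and -0.43 for Pcdh19 (edgeR adjusted p = 0.420). In label 12 the levels were 49.7, 85.9, 157 and 389 CPM from E14.5 to E18.5, and in label 1 they were 67.0, 84.3, 114, 96.8 and 180 CPM from E10.5 to E15.5. Label 3 had 103, 54.3, 76.8, 143 and 27 CPM over those stages. The part that the changing label make-up and the marker sums above have in this rise was tested no further than by leaving out those labels.

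Pcdh10 had 41.1, 82, 49.9, 93.6, 99.9, 128 and 134 CPM from E10.5 to E18.5. Its slope of 0.20 per day (SE 0.05, edgeR adjusted p = 0.0377) passed narrowly. It missed the threshold without E10.5 (0.17, edgeR adjusted p = 0.207), without the second E14.5 sample (0.19, 0.0582), without E15.5 (0.19, 0.0705), without E16.5 (0.18, 0.0947), without E18.5 (0.20, 0.145), without label 6 (0.20, 0.0778) and without label 12 (0.14, 0.267), where the second value is the edgeR adjusted p. Pooled over samples, label 12 had the highest Pcdh10 level of all labels, 127 CPM.

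The other 4 members tested did not pass. Pcdh17 had a slope of 0.24 (95% interval 0.08 to 0.40, edgeR adjusted p = 0.0548, and 0.33 with 0.0218 without E18.5), with 31.2 CPM at E10.5, 109 CPM at E15.5 and 69.25 CPM at E18.5. Pcdh18 had a slope of -0.24 (-0.41 to -0.07, edgeR adjusted p = 0.0729, and -0.27 with 0.0195 without the second E14.5 sample), with 40.7 CPM at E10.5 and 8.24 CPM at E18.5. Pcdha2 had a slope of 0.27 (-0.01 to 0.55, edgeR adjusted p = 0.206), with 2.11 CPM at E10.5 and 41.2 CPM at E18.5. Without E12.5 the Pcdha2 slope was 0.52 and passed (edgeR adjusted p = 0.00885). The slope of Pcdh9 was 0.02 (edgeR adjusted p = 0.931).

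In the neuron labels, Pcdh20, Pcdh7 and Pcdha2 rose between E12.5 and E18.5 and no tested member fell. Of 15 members tested over 6 samples 3 passed, beside 3.08% of 9712 genes tested, 2.05% rising and 1.03% falling. The slope was 0.49 per day for Pcdh20 (SE 0.10, edgeR adjusted p = 0.0244), 0.38 for Pcdh7 (SE 0.08, edgeR adjusted p = 0.0264) and 0.20 for Pcdha2 (SE 0.04, edgeR adjusted p = 0.0292). Their levels by stage are those given above, with the highest value of each gene at E18.5. None of the 3 passed without E16.5 (edgeR adjusted p 0.0585 for Pcdh20, 0.0644 for Pcdh7 and 0.0691 for Pcdha2), without E18.5 (0.150, 0.0895 and 0.277 in the same order) or with only cells of at most 5% mitochondrial UMIs (0.259, 0.701 and 0.492). Pcdh20 also missed the threshold without E12.5 (0.38, edgeR adjusted p = 0.0533), Pcdh7 without the second E14.5 sample (0.36, 0.0536) and Pcdha2 without the first E14.5 sample (0.19, 0.0772).

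The make-up of the neuron labels also moved with the day. Label 2 was 91.8% of the cells at E12.5 and 0.584% at E18.5, whereas label 5 was 3.23% at E12.5 and 65.7% at E18.5, and label 9 was 0.880% and 32.4% at those stages. Pcdh20 had 7.88 CPM in the first E14.5 sample, then 38.9, 16.3 and 53.2 CPM from E15.5 to E18.5 in label 9. In label 5 it had 23.5 and 0 CPM in the E14.5 samples, then 0, 4.23 and 16 CPM. In label 11 it had 17.8 and 15.1 CPM in the E14.5 samples, 1.98 CPM at E15.5 and 61.9 CPM at E16.5, the last from 8 UMIs. Without label 9 the slope of Pcdh20 was 0.41 and did not pass (edgeR adjusted p = 0.25). Within label 11, Pcdh7 had 19.7 and 22.7 CPM at E14.5, 63.5 CPM at E15.5 and 108 CPM at E16.5. Within label 5, Pcdh7 had 35.3 and 14.6 CPM at E14.5, 34.8 CPM at E15.5, 40.2 CPM at E16.5 and 62.2 CPM at E18.5. Pcdha2 in label 5 had 235, 161, 167, 152 and 249.8 CPM over those samples and in label 2 had 99.6 CPM at E12.5, 85.2 and 72.2 CPM at E14.5 and 145 CPM at E15.5.

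The 12 members that did not pass in the neuron labels included Pcdh17 with a slope of 0.24 (95% interval 0.08 to 0.41, edgeR adjusted p = 0.112) and Pcdhb7 with 0.36 (0.03 to 0.68, edgeR adjusted p = 0.25). Pcdh9 had -0.13 (-0.28 to 0.02), Pcdh10 0.15 (-0.02 to 0.33), Pcdh19 -0.10 (-0.30 to 0.10), Pcdh18 -0.03 (-0.30 to 0.24) and Pcdh1 0.15 (-0.18 to 0.47). The beta genes tested besides Pcdhb7 were Pcdhb9 at 0.06, Pcdhb17 at 0.13, Pcdhb20 at 0.15 and Pcdhb21 at 0.06 per day. The Pcdh9 level of 233 CPM at E12.5 decided the sign of its slope, which was 0.05 without that sample. Pcdhga9 had a slope of 0.06 (-0.04 to 0.16, edgeR adjusted p = 0.540).

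The slope of Pcdhga9 in the neuron labels minus that in the progenitor labels was -0.33 per day (SE 0.05, edgeR adjusted p = 0.000936) over the 6 shared samples. Pcdhga9 was the only one of 10 members tested that passed, beside 4.33% of 10311 genes tested, 2.06% higher and 2.27% lower. Pcdh7 had a difference of 0.47 per day (SE 0.21, edgeR adjusted p = 0.245). For Pcdh9 it was -0.20 (SE 0.09, edgeR adjusted p = 0.281). Neither passed, though each had an unadjusted p under 0.05. Without E18.5 the difference for Pcdhga9 was -0.22 and did not pass (edgeR adjusted p = 0.220). With only cells of at most 5% mitochondrial UMIs the Pcdhga9 difference was -0.30 (edgeR adjusted p = 0.0513).

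In the intermediate labels 2 members could be tested for a slope and neither passed with edgeR or DESeq2, though both had an unadjusted p under 0.05, beside 1.42% of 5505 genes that passed, 0.708% rising and 0.708% falling. Pcdhga9 had 111, 101, 124, 147, 178, 219 and 221 CPM from E10.5 to E18.5, with a slope of 0.18 (95% interval 0.06 to 0.30, edgeR adjusted p = 0.148). Pcdh17 had 246 CPM at E10.5 in 33 cells and 19 to 63.2 CPM afterwards, with a slope of -0.44 (-0.69 to -0.19, edgeR adjusted p = 0.0806, and -0.63 with 0.00411 without E18.5). The 7 Cajal-Retzius markers summed to 349 CPM in that E10.5 sum and to 9.51 to 30.7 CPM in the later ones, and Pcdh17 itself had 171 CPM in the Cajal-Retzius-like label 13 at E10.5. The part of such cells in that value was not tested.

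In label 0, 8 members were tested for a slope and 0 passed with edgeR or DESeq2, 3 of them with an unadjusted p under 0.05, beside 1.46% of 7347 genes that passed, 0.857% rising and 0.599% falling. Pcdh9 had 216 CPM at E12.5 there, then 41.2, 34.8, 23.5, 38.95 and 89.1 CPM in the later samples, with a slope of -0.31 (95% interval -0.60 to -0.02, edgeR adjusted p = 0.326). Pcdh7 was higher in label 0 than in the neuron labels from E12.5 to E16.5 and lower at E18.5. The distance was widest at E12.5 and E14.5, with 44.7, 89.1 and 83.4 CPM, against 17.1, 16.8 and 20.4 CPM, a difference with no test here. In label 8, 4 members were tested and 0 passed with edgeR or DESeq2, none with an unadjusted p under 0.05, beside 1.86% of 3379 genes that passed, 1.24% rising and 0.621% falling. Pcdh19 in label 8 had 47 CPM at E10.5 and 43.5 CPM at E18.5 around a highest value of 256 CPM at E14.5, a course that a slope does not describe.

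**Figure D4:**
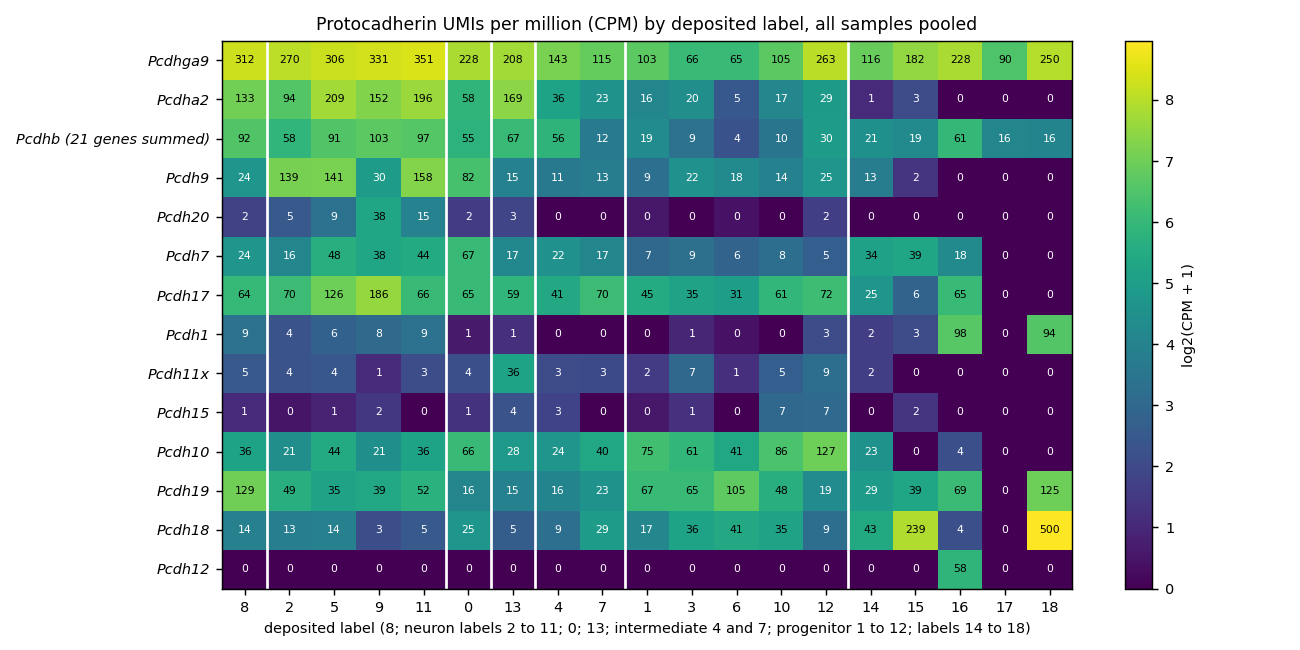
Level of each non-clustered member, of Pcdha2, of Pcdhga9 and of the 21 Pcdhb genes summed (rows) in each of the 19 deposited labels (columns), all samples pooled. Numbers are CPM rounded to whole numbers and colours are log2(CPM + 1), so that Pcdh12 stands out in label 16, Pcdh18 in labels 15 and 18 and Pcdha2 in the labels with neuronal markers.

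Across the 19 labels, Pcdh12, Pcdh1 and Pcdh18 had their highest pooled levels in labels 16 or 18, although most UMIs of Pcdh1 and Pcdh18 came from other labels. Pcdh12 was counted in label 16 only, with 57.8 CPM in the endothelial-like cells (11 of 50 cells, 22%) and 0 UMIs in the other 18 labels. Pcdh1 had 97.6 CPM in label 16 and 93.8 CPM in the mural-like label 18, and at most 9.40 CPM in any other label. Pcdh18 had 500.4 CPM in label 18 (13 of 25 cells) and 239 CPM in the mesenchymal-like label 15 (65 of 142 cells), against 43.0 CPM in the hem-like label 14 and 41.2 CPM in label 6. Labels 16 to 18 hold 50, 32 and 25 cells, so that these levels carry wide counting error.

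Pcdh11x, the X-linked delta gene, had 35.6 CPM in the Cajal-Retzius-like label 13 and at most 8.54 CPM in any other label. In label 13 its levels were 0, 20.6, 27.9, 65.2 and 61.9 CPM at E10.5, E12.5, E14.5 (sample 1), E15.5 and E18.5, from 21 UMIs in all. Pcdha2 had 58.3, 186, 139, 214 and 330 CPM in label 13 at those stages, in sums of 23 to 66 cells. It had 1.07 CPM in label 14, 3.1 CPM in label 15 and 0 in labels 16 to 18, whereas Pcdhga9 had 90.1 to 250.2 CPM in those 5 labels.

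Within the neuron labels the non-clustered genes differed by label, which is a description, since the labels were drawn from the same counts. Pcdh17 had 186 CPM in label 9 and 126 CPM in label 5, against 70.3 CPM in label 2 and 65.8 CPM in label 11. Pcdh20 had 38.1 CPM in label 9, against 14.8 CPM in label 11, 9.50 CPM in label 5 and 4.71 CPM in label 2. Pcdh9 ran the other way, with 30.0 CPM in label 9, against 158 CPM in label 11, 141 CPM in label 5 and 139 CPM in label 2. 4 samples had at least 20 cells of both label 9 and label 5, the first E14.5 sample and those from E15.5 on. Over these, Pcdh17 had 181, 212, 196 and 175 CPM in label 9, against 58.8, 127, 167 and 124 CPM in label 5. Pcdh9 had 47.3, 32.4, 43.6 and 19.6 CPM in label 9, against 153, 66.0, 123 and 174 CPM in label 5. In label 9, Pcdh17 was thus higher and Pcdh9 lower in 4 of 4 samples, and Pcdh20 was higher in 3 of 4, with 7.88 CPM in label 9 and 23.5 CPM in label 5 in the first E14.5 sample, from 2 UMIs each.

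Genes that act with protocadherins or belong to the same superfamily were followed as 3 lists. Regulators of the promoter choice of clustered genes, among them the insulator protein CTCF, cohesin and DNA methyltransferases, were mostly lower in the neuron labels than in the progenitor labels: 2 of 17 tested were higher and 13 lower, with a median log2 difference of -0.65, against 0.03 over all genes tested, of which 30.7% were higher and 29.8% lower. Rest, a repressor of neuronal genes, differed by -1.97, the cohesin subunits Rad21 and Stag2 by -1.58 and -1.48, and Dnmt3a by -1.22, whereas Wiz and Mau2 were higher by 1.0 and 0.95. Ctcf had a difference of -0.18 and did not pass (edgeR adjusted p = 0.147). None of the 17 passed for a slope in the progenitor or the neuron labels.

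Of the cadherin superfamily relatives, 7 of 10 tested were higher in the neuron labels and 2 lower, with a median of 1.35, beside the same 60.5% of all genes called. Clstn2, a calsyntenin, was higher by 4.60 and Celsr3, a guide of axon tracts, by 4.33, whereas Celsr1 and Fat1, large atypical cadherins of epithelia, differed by -3.40 and -3.21. Clstn2 also rose with the day in the neuron labels, by 0.55 per day (edgeR adjusted p = 0.0258). Of 22 tested signalling and processing partners, 7 were higher and 7 lower, with a median of 0.08, near that share of all genes. Cyfip2 and Wasf1 of the WAVE complex were higher by 1.97 and 1.04 and the kinase Fyn by 1.05, whereas Wasf2 and Wasf3 differed by -1.93 and -0.60. Fyn and Wasf2 rose in the progenitor labels by 0.21 and 0.16 per day and Set fell by 0.15, and the other 19 partners tested there did not pass.

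In intermediate against progenitor labels, 1 of 6 tested relatives was higher and 3 lower, 1 of 17 regulators was higher and 2 lower, and 2 of 22 partners were higher and 2 lower, beside 13.7% of all genes tested higher and 15.7% lower. Rest was among the lower ones, with a log2 difference of -2.70, and Mau2 was the higher regulator, by 0.83. In label 8 against neuron labels, 3 of 8 relatives were lower, 3 of 17 regulators were higher, and 1 of 22 partners was higher and 4 lower, beside 5.73% of all genes tested higher and 8.37% lower. The lower partners included N-cadherin (Cdh2), a binding partner of Pcdh19, at -0.72, and Nckap1 of the WAVE complex at -1.25.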

How the data were processed

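Dorsal cortical tissue was dissociated with papain and captured by Drop-seq, per the labels' protocols, which name Drop-seq tools version 3.1. The submitters' processing notes name mm10 and Seurat 3.1.5. The deposited values are counts, whole UMIs per gene and cell, with no normalization by the authors per the values themselves. The aligner, the annotation and the use of strand are not given in the sources used here. Libraries were matched to samples by name. The exact name of 1 library of 1303 cells is on no label, and it was assigned to the larger E14.5 sample by inference.

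13 cells with over 2% haemoglobin UMIs were set aside. The 101 doublets that Scrublet called in scanpy 1.11.5 (0.984%, expected 5%) were left out only as an alternative. Sums per label set and sample were tested two-sided with the quasi-likelihood test of edgeR 4.0.16 (R 4.3.3) after filterByExpr and TMM scaling, with Benjamini-Hochberg adjustment over all genes tested at 0.05. Slopes used embryonic day as a number, and differences between label sets used the sample as a block. Some of the fits were also run on simulated counts in which only genes with many UMIs were changed. That run does not cover members with few UMIs, such as Pcdhb7 and Pcdh20. Shares carry exact Clopper-Pearson 95% intervals, which cover counting error only.

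Members described in full are those called at least once, the non-clustered members past a low count filter and the 6 clustered ones with the most UMIs. Members and lists were chosen with earlier results of these data known. Alternatives were DESeq2 1.42.0, its size factors, no filter, thinned sums, summed E14.5 samples, filters on depth, mitochondrial share, doublets and labels, each sample left out and, added after seeing the data, leaving out label 9 or the library assigned by inference.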

Additional observations from a re-analysis of the deposited data

Results flagged for a closer look

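For Pcdhga9, the slope on embryonic day in the neuron labels minus that in the progenitor labels was -0.33 log2 per day (SE 0.05), and a test of the difference itself passed (edgeR adjusted p = 0.000936). Over the 6 shared samples Pcdhga9 had 264 to 387 CPM in the neuron labels and 71.9 to 374 CPM in the progenitor labels, and the 2 sets met at E18.5. The call was lost without E18.5, where label 12 made up 83.4% of the progenitor label cells.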

How the results depend on the processing

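The 21 called member results kept their direction under the 349 alternatives run for them, and 42 of these no longer passed. Of the uncalled results, 30 were followed in this way, and their 439 alternatives left 397 as they were, made 16 pass and reversed 26. Uncalled slopes in label 0 and label 8 and uncalled differences of slopes were not followed gene by gene and are not in these counts. With no low count filter the members called were 8 for the progenitor slope, 1 for the intermediate slope, 5 for the neuron slope, 1 for label 0 and 20 for neuron against progenitor labels. With sums thinned to the smallest they were 0, 1 and 4 for the progenitor slope, the neuron slope and neuron against progenitor labels, and 0 for intermediate against progenitor labels, for label 8 against neuron labels and for the difference of slopes. Summing the E14.5 samples gave 5 for the progenitor slope. With at most 5% mitochondrial UMIs they were 0 for the neuron slope, 1 for label 0 and 0 for the difference of slopes. The thinned sums hold far fewer counts, so fewer genes could be tested, and a member under the filter in an alternative has no value there. The mitochondrial filter also cut counts, and unevenly over stages. Median shares were 5.41% at E10.5 and 6.80% to 7.53% from E15.5 on, so most cells of those samples were left out. At E12.5 and E14.5 the medians were 2.25% to 3.83%.

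Leaving out each sample gave 2 to 4 members for the progenitor slope, 0 to 1 for the intermediate slope and label 0, 0 to 3 for the neuron slope and the difference of slopes, 8 to 14 for neuron against progenitor labels, 2 to 5 for intermediate against progenitor labels and 2 to 3 for label 8 against neuron labels. Over all genes, the share called ranged from 0.431% to 12% for the progenitor slope, 1.45% to 3.93% for the neuron slope and 23.6% to 61.6% for neuron against progenitor labels.

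Among the results followed, the reversals were all of results that had not passed. The progenitor slope of Pcdh9 was -0.00615 with no filter, -0.20 with at most 5% mitochondrial UMIs and -0.10 to 0.0511 with a sample left out. Neuron slopes with a sample left out were -0.33 to 0.0510 for Pcdh9, -0.10 to 0.27 for Pcdh10, -0.0864 to 0.21 for Pcdh18 (0.20 with thinned sums) and -0.46 to 0.18 for Pcdh19. Pcdh19 in neuron against progenitor labels was -0.16 under the mitochondrial filter, -0.0893 without label 12 and -0.16 to 0.47 with a sample left out. Pcdh17 in intermediate against progenitor labels was -0.29 with DESeq2, -0.21 thinned, -0.0133 under the mitochondrial filter and -0.36 to 0.49 with a sample left out, and Pcdhga9 was -0.12 thinned. In label 8 against neuron labels, the mitochondrial filter gave 0.15 for Pcdh7, -0.22 for Pcdh10, 0.52 for Pcdh17 and 0.23 for Pcdha2, thinning gave 2.09 for Pcdha2 and 0.60 for Pcdhga9, summing the E14.5 samples gave 0.0279 for Pcdhga9, and leaving out a sample gave -0.0842 to 0.35 for Pcdh10 and -0.21 to 0.10 for Pcdhga9. The cause was not tested. Label sets were compared within samples, with the sample as a block. Across stages no paired analysis was possible, since each sample holds a single stage. Only E14.5 had a second replicate, so differences between days cannot be told apart from differences between samples.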
